A study of Arabidopsis thaliana with 24 samples.

Results

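Polysome-bound RNA was set against total RNA in Arabidopsis thaliana seedlings that had just been moved from darkness to light. The seedlings were Col-0, which is the accession labelled as the control genotype, 4 d old, etiolated, and given 4 h of white light. The RNA came from their aerial parts. All 6 arrays labelled light Col-0 were used, 3 of polysomal RNA and 3 of total RNA, of 24 in the series. The series also holds Col-0 seedlings kept in darkness and the mutant dcp5-1 in light and in darkness, each with 3 arrays of either fraction. Seeds were germinated on diluted Murashige and Skoog medium, and per the series' design the replicates are biological. Each sample was hybridised to an Affymetrix ATH1 array, on which a probe set is a group of short oligonucleotides that together measure 1 transcript. All 22746 probe sets other than array controls entered the comparison. Whether seedlings were pooled and how large each extract was is not given in the sources used here.

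A polysome is an mRNA carrying several ribosomes, and such complexes sediment away from free mRNA. A transcript that is enriched in polysomal RNA relative to total RNA is therefore held more on ribosomes than the typical transcript of the same extract, and a depleted one less. DCP5, for which the mutant dcp5-1 is named, is a component of processing bodies, cytoplasmic granules that hold mRNAs away from ribosomes. Etiolated seedlings are known to switch many mRNAs into translation when light first reaches them.

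Signals are given as log2 values relative to the median of the same array, and a difference is polysomal minus total within 1 replicate number, here called a pair. A difference of 0 thus marks a transcript that behaved like the array's median transcript, not one with equal amounts in both fractions. In RNA from whole aerial parts, a change in how each cell loads a transcript and a change in which cells supplied polysomes cannot be told apart. Differences carry the SE of the fit (n = 3 pairs), and a gene was called when its adjusted p in limma, by the method of Benjamini and Hochberg over all probe sets, was under 0.05. Counts over genes and gene lists took the brightest probe set of a gene.

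Markers of leaf mesophyll and cotyledon lay well above the array median in both fractions. RCA, the activase of Rubisco, had 7.21, 7.42 and 7.15 on the polysomal arrays and 7.28, 7.06 and 6.91 on the total arrays. SBPASE, the sedoheptulose bisphosphatase of the Calvin cycle, had 5.01 to 6.10 in polysomal RNA and 5.45 to 5.85 in total RNA. The root hair expansin EXPA7 had -4.96 to -4.69 in polysomal RNA and -6.57 to -3.36 in total RNA, far under the array median. EXPA18, another root hair expansin, had -3.91 to -1.27 in polysomal RNA and -2.16 to -1.83 in total RNA. Its probe set was not among the dimmest 25%, so its absence is not shown. Of the listed markers, 3 leaf and cotyledon genes and 2 root genes had a probe set named here for them alone.

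Control probe sets differed between the fractions before any gene is considered. The ATH1 array measures actin at both ends of the transcript, and the 3′ minus 5′ signal was 4.44, 5.24 and 5.88 on the polysomal arrays, against 1.87, 2.04 and 1.69 on the total arrays. For the GAPDH transcript it was 1.29 ± 0.72 in polysomal RNA and -0.13 ± 0.08 in total RNA, and for ubiquitin 1.23 ± 0.33 and 0.25 ± 0.10 (SD, n = 3 arrays each). No polysomal array overlapped a total array in any of these 3 measures. For this actin pair of probe sets the polysomal minus total difference was 0.41 at the 3′ end and -2.91 at the 5′ end. The array's older actin probe sets gave 0.65 and -1.21. The control probe set of 25S ribosomal RNA had 2.38, 1.14 and 1.62 in polysomal RNA, against 4.57, 4.20 and 4.29 in total RNA. Probe sets for 4 Bacillus transcripts, made to be spiked in as polyadenylated RNA, were bright only on the polysomal arrays: dap had 5.77, 6.74 and 6.31 there and 0.93, 0.79 and -3.06 on the total arrays. Handling that differed between the fractions and the fraction itself cannot be told apart.

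**Figure D1:**
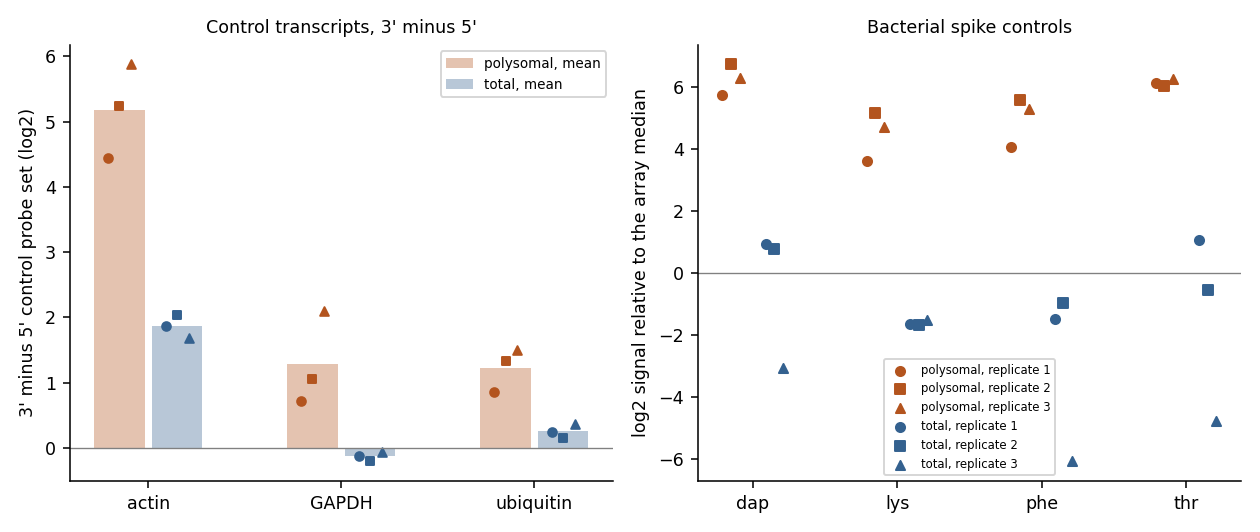
Control probe sets on the 6 light Col-0 arrays. Left, 3′ minus 5′ log2 signal of 3 plant transcripts, with the mean as a bar and each array as a point, where every polysomal array lies above every total array. Right, log2 signal relative to the array median of 4 bacterial spike transcripts, which reach 3.63 to 6.74 on polysomal arrays and -6.08 to 1.06 on total arrays.

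Of the 22746 probe sets, 2746 were called higher (12.1%) and 1840 lower (8.09%) in polysomal RNA than in total RNA, together 20.2%. The differences were mostly moderate. Of the calls, 580 were above 1 and 486 below -1 on the log2 scale, and 99 lay above 2 and 106 below -2. The polysomal arrays lay wholly above the total arrays for 2032 of the higher calls and wholly below them for 1233 of the lower calls. Over all probe sets, called or not, 14.2% had such a gap with polysomal RNA higher and 9.03% with it lower. The direction split depended on the scaling: 59.9% of calls were higher here, 50.2% after quantile normalisation (2259 higher, 2240 lower) and 42.0% after scaling to 1 trimmed mean (1976 higher, 2730 lower). These scalings moved the median of all probe sets to 0.01 and -0.05, against 0.07. Without pair 3 the calls fell to 1470 higher and 814 lower, and without pair 2 to 1922 and 1138. Without the pairing of replicates they were 1343 and 771.

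Precision followed the brightness of a probe set. In the brightest 25% the median SE was 0.14 and 27.2% were called higher and 14.3% lower, while in the dimmest 25% the median SE was 0.86 and the shares were 1.62% and 1.06%. Counted with 1 probe set per gene, 1540 of 13356 genes were called higher (11.5%) and 910 lower (6.81%), with a median difference of 0.09. Of the 9424 genes outside the dimmest 25%, 15.6% were called higher and 9.31% lower. The gene lists below are set against all genes, so a list of bright genes starts from a higher share. Of 146 genes measured by several probe sets, 13 had at least 2 of them called, and in 5 of these 13 the probe sets were called in opposite directions. AT2G43160 was the widest of these, with -3.21 ± 0.64 at one probe set and 0.63 ± 0.13 at the other. Those 5 genes were picked out after their values were seen.

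The largest called differences outside the dimmest 25% reached both plastid and nuclear genes. Among the 12 lowest by the fixed rule were psaA, psbD, petD and nad5 of the organelle genomes, and among the 12 highest was the plastid gene atpH. The nuclear locus AT1G22730 had 1.69, 1.55 and 1.53 in polysomal RNA, against 0.04, -0.27 and -0.37 in total RNA, a difference of 1.79 ± 0.24 or 3.46-fold (adjusted p = 6.4e-05). AT4G16000 had -0.03, 1.11 and 1.07 in polysomal RNA, against -1.43, -0.83 and -0.95 in total RNA (1.79 ± 0.22). AT1G67860 had 0.15, -0.58 and 0.32 in polysomal RNA, against -1.30, -2.69 and -2.88 in total RNA (2.25 ± 0.29). For these 3 genes the 2 fractions were well apart in every pair.

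At the low end, AT3G17050, which the reference lists as a pseudogene, had -4.23, -4.19 and -3.92 in polysomal RNA, against -0.82, -0.39 and -0.69 in total RNA (-3.48 ± 0.65, adjusted p = 0.0010). AT5G19700 had -5.0, -4.28 and -3.73 in polysomal RNA, against -1.67, -1.51 and -1.46 in total RNA (-2.79 ± 0.50). AT1G51110 gave the lowest value of the 12, -4.04 ± 0.83, but its polysomal values spread from -6.05 to -0.11 and its other probe set gave -0.96 ± 0.29. AT5G24710 gave -2.52 ± 0.67 at the named probe set and 0.26 ± 0.15 at its other one. Calls that ended without 1 pair were those of AT1G30250, AT1G51110, AT1G57670, AT2G40640, AT3G48450, AT4G00040, AT5G07740, AT5G19950, AT5G24710 and petD, with adjusted p up to 0.41.

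**Figure D2:**
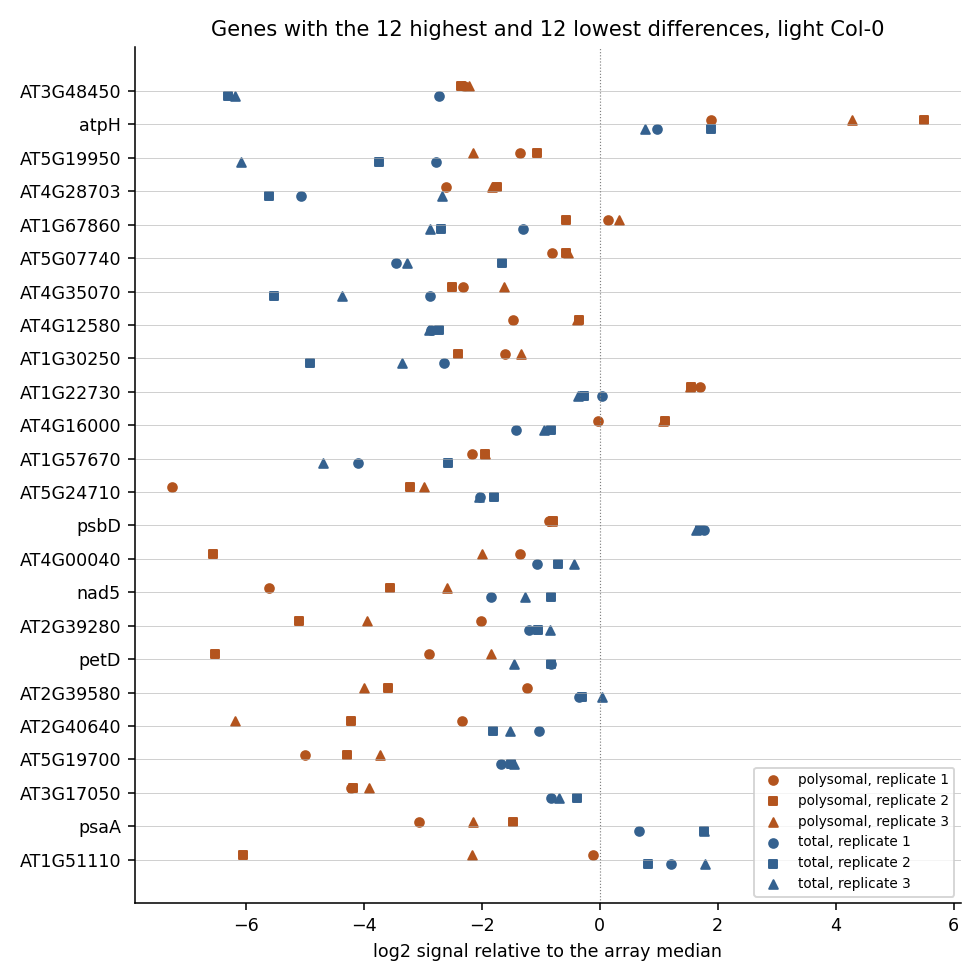
The 12 genes with the highest and the 12 with the lowest called differences, in order of the difference. Each point is 1 array, with polysomal arrays above total arrays in each row, and the x axis is log2 signal relative to the array median. By the naming rule no polysomal point overlaps the total points of its gene, and psbD and AT1G22730 are tight while petD and AT1G51110 spread widely in polysomal RNA.

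Many plastid-encoded transcripts were lower in polysomal RNA. Its transcripts are made inside the chloroplast and are read by the chloroplast's own bacterial-type ribosomes. Of 69 plastid-encoded genes 21 were called lower (30.4%, against 6.81% of all genes) and 5 higher (7.25%, against 11.5%), with a median of -0.43 that was -0.64, -0.29 and -0.24 in pairs 1 to 3. The 5′ and 3′ control values and the spike signals given above moved with the fraction in every pair, and their part in this was not tested. Leaving out the replicate pairing gave 6 lower and 1 higher, quantile normalisation 25 and 2, and leaving out pair 1, 2 or 3 gave 17 and 10, 18 and 3, and 18 and 1.

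Photosystem I genes split. psaA and psaB encode the paired core proteins that hold the reaction centre. psaA had -3.07, -1.46 and -2.15 in polysomal RNA, against 0.67, 1.78 and 1.78 in total RNA, which is 12.4-fold lower (-3.63 ± 0.25, adjusted p = 1.3e-06). psaB had 5.76, 6.79 and 5.75 in polysomal RNA, against 5.78, 6.11 and 5.08 in total RNA, and was not called (0.44 ± 0.17, adjusted p = 0.082). Both genes are known to be transcribed together. Of the 5 measured plastid genes of photosystem I psaA alone was called (20% lower, against 6.81% of all genes). psaC, for an iron-sulfur subunit, had 1.06 without passing the test.

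Of 15 photosystem II genes 6 were called lower (40%, against 6.81% of all genes) and 1 higher (6.67%, against 11.5%). psbD, which encodes the reaction centre protein D2, had -0.86, -0.79 and -0.82 in polysomal RNA, against 1.77, 1.71 and 1.63 in total RNA (-2.53 ± 0.28, adjusted p = 1.7e-05). The values of psbD were close together within each fraction and far apart between them. psbC, for the antenna protein CP43, is read from the same transcripts in an overlapping frame and had -0.60 ± 0.28 (adjusted p = 0.16). psbB, for the antenna protein CP47, gave -1.50 ± 0.29, psbH, for a small phosphoprotein of the complex, -2.14 ± 0.34, and psbA, for the reaction centre protein D1, -1.30 ± 0.25. The 4 neighbours that are transcribed as 1 unit gave a graded set: psbE and psbF, for the subunits of cytochrome b559, had -1.08 ± 0.16 and -0.60 ± 0.16, psbL had -0.37 ± 0.18 and psbJ 0.01 ± 0.12, the last pair not called. psbI, a small subunit, was higher by 0.74 ± 0.19. These neighbours were chosen after their values were seen.

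The cytochrome b6f complex had 2 of 6 genes called, both lower (33.3%, against 6.81% of all genes). petD, for subunit IV, had -2.89, -6.53 and -1.85 in polysomal RNA, against -0.82, -0.83 and -1.46 in total RNA (-2.72 ± 0.72, adjusted p = 0.012), and its size rests mostly on pair 2. petA, for cytochrome f, had -0.72 ± 0.18. petB, for cytochrome b6, lies next to petD and had -0.46 ± 0.18 (adjusted p = 0.084), which became a call at -0.71 after quantile normalisation and -0.58 after trimmed mean scaling. Of 6 ATP synthase genes 1 was higher (16.7%, against 11.5% of all genes) and 1 lower (16.7%, against 6.81%). atpH, for the ring subunit c, had 1.89, 5.49 and 4.28 in polysomal RNA, against 0.97, 1.88 and 0.76 in total RNA (2.69 ± 0.56, adjusted p = 0.0023). Its neighbours in the same transcription unit were atpI with -1.21 ± 0.63, atpF with -0.38 ± 0.25 and atpA, for subunit alpha, with -0.91 ± 0.16, of which atpA was called.

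Of 10 plastid genes for the NAD(P)H dehydrogenase, which returns electrons to the plastoquinone pool, 4 were called lower (40%, against 6.81% of all genes). They were ndhA (-1.15 ± 0.16), ndhD (-0.88 ± 0.17), ndhK (-0.62 ± 0.20) and ndhG (-2.87 ± 0.90). Of 15 plastid ribosomal protein genes 3 were lower (20%, against 6.81%) and 3 higher (20%, against 11.5%). The lower ones were rpl16 (-1.72 ± 0.24), rpl14 (-0.98 ± 0.17) and rpl36 (-0.97 ± 0.20), which are neighbours. The higher ones were rps15 (1.17 ± 0.25), rps18 (0.69 ± 0.22) and rps4 (0.60 ± 0.16). Of the 4 genes for the plastid's own RNA polymerase 1 was lower (25%, against 6.81%), rpoC1 at -1.15 ± 0.31. Outside these complexes, cemA, for an envelope membrane protein, had 0.22, 0.25 and -0.89 in polysomal RNA, against 3.25, 1.76 and 0.96 in total RNA (-2.13 ± 0.26), clpP, for a protease subunit, had -1.33 ± 0.21 and matK, for an intron maturase, -0.79 ± 0.15. rbcL, for the large subunit of Rubisco, had 0.30 ± 0.16 and was not called (adjusted p = 0.20). Among the plastid genes named here, the calls of ndhG, ndhK, petA, petD, psbF, psbI, rpoC1, rps4, rps15 and rps18 ended without 1 of the pairs, with adjusted p up to 0.40.

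**Figure D3:**
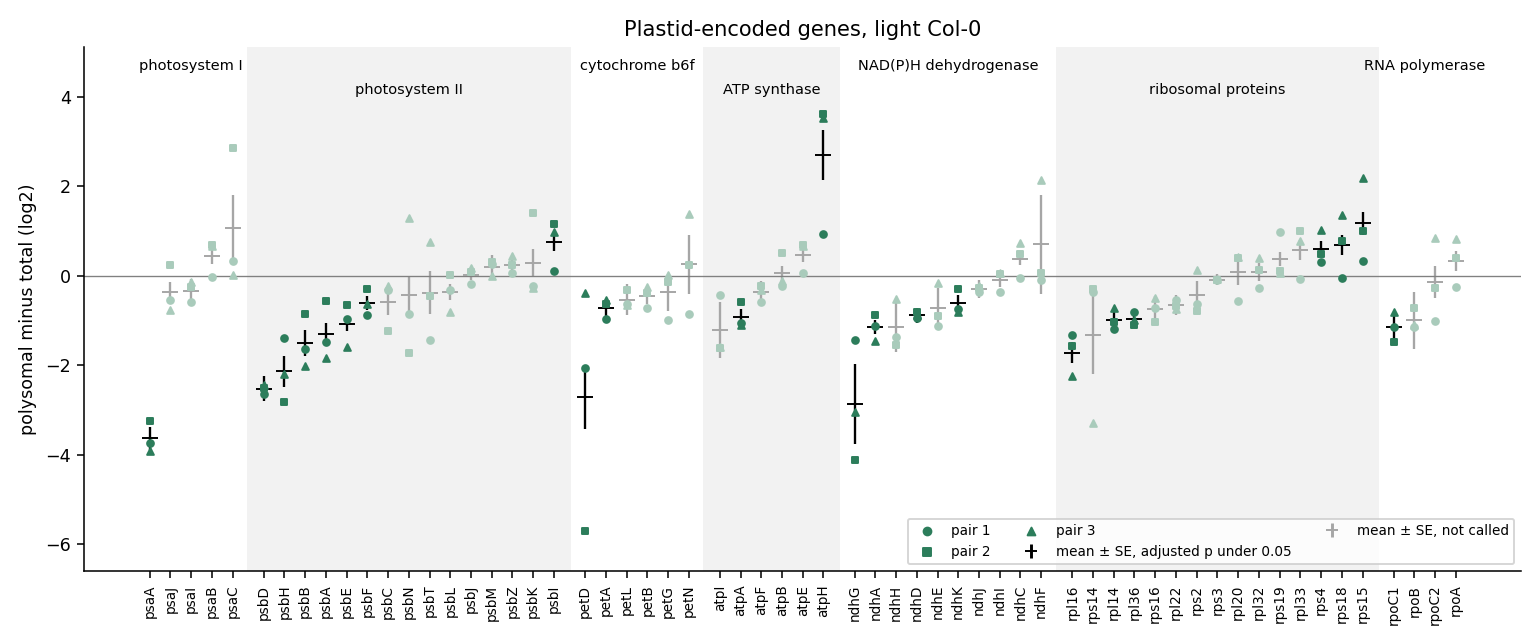
Polysomal minus total differences (log2) of plastid-encoded genes by complex in light Col-0. Points are the 3 pairs and bars the mean ± SE of the fit, dark where the adjusted p was under 0.05. psaA at -3.63 and atpH at 2.69 stand at the 2 ends, and most complexes hold genes on both sides of 0.

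Mitochondrial genes also lay low. Of 16 mitochondrion-encoded genes 5 were called lower (31.2%, against 6.81% of all genes) and 0 higher, with a median of -0.89 that was -1.52, -0.36 and -0.48 in pairs 1 to 3. Without the pairing of replicates 3 were called lower, and 6 of the 16 lay in the dimmest 25%. cox2, a subunit of cytochrome c oxidase, had -3.39, -3.53 and -3.27 in polysomal RNA, against -1.60, -0.32 and -0.93 in total RNA (-2.45 ± 0.47, adjusted p = 0.0014). nad5 and nad4L, subunits of complex I, gave -2.61 ± 0.55 and -2.86 ± 0.60, the second from a dim probe set. ccb382 and ccb452, cytochrome c maturation genes, had -0.74 ± 0.19 and -1.03 ± 0.32, and their calls ended without 1 of the pairs (adjusted p up to 0.20). The 7 probe sets that carry the name nad1 alone ran from -3.64 to 1.18, so that gene has no single value. The control values given above moved with the fraction here too, and their part was not tested.

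On the list of nuclear genes for photosystem, antenna and electron transport proteins, 8 had a probe set named here. Of these 2 were called higher (25%, against 11.5% of all genes) and 0 lower, and all 8 lay above 0. All 8 lay outside the dimmest 25%, where 15.6% of genes were called higher. Of the brightest 25% of probe sets 27.2% were called higher. PSAE-1, a stromal subunit of photosystem I, had 7.42, 7.41 and 7.34 in polysomal RNA, against 6.89, 6.63 and 6.46 in total RNA (0.73 ± 0.14, adjusted p = 0.0013). PSBW, a small photosystem II protein, had 0.60 ± 0.13. Both calls ended after quantile normalisation (0.29, adjusted p = 0.091, and 0.30, adjusted p = 0.10), where the list's median was -0.01 against 0.23, and that of PSBW ended without pair 3 (adjusted p = 0.062). Without the pairing of replicates 0 of the 8 were called. The antenna genes LHCB4.1, LHCB4.2 and LHCB4.3 had 0.16 to 0.18 and were not called.

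Of 4 Calvin cycle genes 0 were called. They were RCA with 0.18 ± 0.14, SBPASE with -0.12 ± 0.14, PRK, phosphoribulokinase, with -0.22 ± 0.15, and TPI, triosephosphate isomerase, with -0.28 ± 0.11. Quantile normalisation called PRK (-0.52), SBPASE (-0.38) and TPI (-0.54) lower, and trimmed mean scaling called TPI alone (-0.41). Of 8 genes of chlorophyll and tetrapyrrole synthesis 4 were called lower (50%, against 6.81% of all genes) and 0 higher, with a median of -0.41. Without the pairing of replicates 1 was called lower. GSA1, which makes the precursor 5-aminolevulinate, had 2.26, 2.09 and 1.96 in polysomal RNA, against 3.16, 2.27 and 2.96 in total RNA (-0.69 ± 0.14). HEME2, a uroporphyrinogen decarboxylase, had -0.58 ± 0.12, HEMB1, which joins 2 molecules of 5-aminolevulinate, -0.49 ± 0.12, and CHLI2, a subunit of magnesium chelatase, -0.66 ± 0.17. PORB, the enzyme that light drives to make chlorophyllide, had -0.32 ± 0.13 (adjusted p = 0.087). The calls of HEMB1 and CHLI2 ended without 1 of the pairs (adjusted p up to 0.14).

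Transcription factors of the basic helix-loop-helix family held a group of iron regulators that was high in polysomes. Of 7 members with a probe set named here 4 were called higher (57.1%, against 11.5% of all genes) and 0 lower. The 4 were ILR3, bHLH34, bHLH104 and bHLH115, close relatives known to switch on the iron deficiency response. ILR3 had 4.03, 4.46 and 4.87 in polysomal RNA, against 3.30, 3.58 and 3.43 in total RNA (1.02 ± 0.15, 2.02-fold). bHLH104 had 3.67, 4.11 and 3.98 in polysomal RNA, against 2.91, 3.33 and 2.48 in total RNA (1.01 ± 0.16). bHLH115 had 4.45, 4.56 and 4.6 in polysomal RNA, against 3.65, 3.69 and 3.44 in total RNA (0.94 ± 0.11, adjusted p = 2.5e-05).

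The fractions did not overlap for any of the 4, bHLH34 included (1.18 ± 0.22). The polysomal arrays also lay wholly above the total arrays for 2032 of all 2746 higher calls and for 14.2% of all probe sets. The list kept a count of 4 higher without each pair, without the pairing and after quantile or trimmed mean scaling, and under these scalings 1 member was also called lower. bHLH121, a partner of these factors, had -0.39 ± 0.14 and was not called (adjusted p = 0.066). In dark Col-0 and light dcp5-1 the differences of ILR3 were 0.96 and 1.08, and those of bHLH115 were 0.93 and 0.77.

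The nuclear RNA polymerases, which make the cell's mRNA, ribosomal RNA and tRNA, gave calls for small subunits. Of 12 subunit genes with a probe set named here 4 were called higher (33.3%, against 11.5% of all genes) and 1 lower (8.33%, against 6.81%). NRPB12 had 3.43, 3.84 and 4.55 in polysomal RNA, against 2.48, 2.35 and 2.65 in total RNA (1.45 ± 0.17, 2.73-fold, adjusted p = 2.2e-05). NRPB9B gave 1.27 ± 0.19, NRPB6A 0.73 ± 0.11 and NRPB6B 0.79 ± 0.13. The count stayed at 4 without each pair and without the pairing. The large subunits of polymerases I and III had -0.43 to 0.18 and were not called, and NRPB7, called lower at -0.49 ± 0.17, lost its call without 1 of the pairs (adjusted p up to 0.33).

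Of 7 histone genes 3 were called higher (42.9%, against 11.5% of all genes) and 0 lower, and all 3 encode histone H2B. HTB11 had 3.85, 3.76 and 4.08 in polysomal RNA, against 3.17, 3.30 and 2.87 in total RNA (0.79 ± 0.15), HTB1 gave 0.67 ± 0.12 and HTB2 0.64 ± 0.13. The linker histone genes HIS1-3 (-0.05 ± 0.26) and HON4 (0.01 ± 0.15) were not called. The count stayed at 3 without each pair and was 2 without the pairing.

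A conserved upstream reading frame is a short frame ahead of the main one that can hold ribosomes back. Of 24 listed loci known for such a frame, 8 had a probe set named here, and 8730 probe sets carry no gene name. Of these 8 loci 6 were called higher (75%, against 11.5% of all genes) and 0 lower. SAMDC, S-adenosylmethionine decarboxylase of polyamine synthesis, had 6.93, 6.84 and 6.95 in polysomal RNA, against 6.46, 6.09 and 6.28 in total RNA (0.63 ± 0.15). bZIP44, a transcription factor whose upstream frame responds to sucrose, had 0.57 ± 0.16, and BZIP53, of the same group, 0.35 ± 0.11. AT5G15950, AT5G50010 and AT5G09460 had 0.59 ± 0.16, 0.71 ± 0.22 and 0.58 ± 0.19. Each of these 6 calls ended without at least 1 of the pairs (adjusted p up to 0.32). The count was 4, 1 and 1 without pair 1, 2 or 3, 2 without the pairing and 3 after quantile normalisation.

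Of 11 RALF-like genes, which encode small secreted signal peptides, 6 were called higher (54.5%, against 11.5% of all genes) and 0 lower. These are short genes, with a median length of 809 bp against 2105 bp for all genes. Short genes as a class lay higher, as given below. RALFL34 had 4.83, 5.36 and 6.14 in polysomal RNA, against 4.44, 4.65 and 4.92 in total RNA (0.77 ± 0.14). RALFL22, RALFL24, RALFL32 and RALFL33 had 0.39 to 0.65, and RALFL18, from a dim probe set, 2.16 ± 0.68. Apart from RALFL34 each of these calls ended without 1 of the pairs (adjusted p up to 0.34), and the count was 2 without pair 3, 2 without the pairing of replicates and 3 after quantile normalisation.

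Of 12 ubiquitin-conjugating enzymes 5 were called higher (41.7%, against 11.5% of all genes) and 1 lower (8.33%, against 6.81%), with UBC30 at 0.68 ± 0.13, UBC22 at 0.60 ± 0.12 and UBC29 at 0.57 ± 0.11. Of 12 ubiquitin-specific proteases, which take ubiquitin off again, 3 were higher (25%, against 11.5%) and 0 lower, and 1 was higher without the pairing. All 12 proteases lay outside the dimmest 25%, where 15.6% of genes were called higher. UBP25 had 2.64, 2.23 and 2.33 in polysomal RNA, against 1.46, 0.81 and 0.95 in total RNA (1.33 ± 0.13, adjusted p = 5.2e-06), with no overlap between the fractions. UBP15 (0.65 ± 0.14) and UBP18 (0.51 ± 0.16) lost their calls without 1 of the pairs (adjusted p up to 0.27). Of 15 IQ-domain proteins, which bind calmodulin, 4 were higher (26.7%) and 0 lower, with IQD30 at 1.02 ± 0.14 and IQD28 at 0.68 ± 0.12.

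Of 14 SWEET transporters, which move sugars across membranes, 3 were called lower (21.4%, against 6.81% of all genes) and 0 higher. SWEET1 had -0.11, 0.80 and 0.60 in polysomal RNA, against 1.76, 2.21 and 2.1 in total RNA, which is 3.02-fold lower (-1.59 ± 0.18, adjusted p = 1.8e-05). SWEET2, a transporter of the vacuole membrane, had 2.83, 2.27 and 1.73 in polysomal RNA, against 3.63, 3.53 and 3.33 in total RNA (-1.22 ± 0.14). SWEET3 had -0.41 ± 0.14, and its call ended without pair 2 or 3 (adjusted p up to 0.31).

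Of 15 tetraspanins, proteins that span the plasma membrane 4 times, 3 were called lower (20%, against 6.81% of all genes) and 0 higher. TET10 had 1.26, 0.94 and 0.87 in polysomal RNA, against 2.16, 2.18 and 1.93 in total RNA (-1.06 ± 0.13), and TET5 gave -0.97 ± 0.18. TET3 gave -0.47 ± 0.15 and lost its call without any 1 pair (adjusted p up to 0.17). Of 20 beta-glucosidases 3 were lower (15%) and 0 higher, BGLU46, BGLU16 and BGLU25 with -0.72 to -0.37, and without pair 3 the count was 0 (adjusted p up to 0.30). Of 47 UDP-glycosyltransferases 5 were lower (10.6%, near the 6.81% of all genes; 0 without the pairing) and 2 higher (4.26%, against 11.5%), with UGT73B1 at -1.07 ± 0.17 and UGT88A1 at 0.71 ± 0.11.

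Of 27 expansins and xyloglucan endotransglucosylases, which loosen and rebuild the growing wall, 6 were lower (22.2%, against 6.81% of all genes) and 2 higher (7.41%, against 11.5%). EXPB1 had -0.62, -0.03 and -0.15 in polysomal RNA, against 0.19, 0.91 and 1.47 in total RNA (-1.12 ± 0.17), EXPA4 gave -0.73 ± 0.12 and EXPA9 -0.72 ± 0.13. The list's median was 0.04, and it was -0.05 after quantile normalisation and -0.09 after trimmed mean scaling. Without pair 1, 2 or 3 the list had 8, 4 and 3 lower and 2, 1 and 1 higher. Without the pairing it had 4 lower and 1 higher. Of 9 tubulins and actins 2 were lower (22.2%, against 6.81%) and 0 higher, TUA6 at -0.56 ± 0.11 and TUA1 at -0.48 ± 0.14, and the call of TUA1 ended without pair 1 or 3 (adjusted p up to 0.28).

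Of 7 genes for mRNA decapping and decay factors 3 were called higher (42.9%, against 11.5% of all genes), all of them LSM subunits. LSM6A had 0.75 ± 0.20, LSM3B 0.61 ± 0.20 and LSM6B 0.44 ± 0.15. Each call ended without 1 of the pairs (adjusted p up to 0.39), and 0 were called without the pairing. Of 3 light signalling and clock genes 1 was higher (33.3%, against 11.5%). It was GI, a clock component (0.59 ± 0.14, lost without pair 2 or 3, adjusted p up to 0.071), while HYH (0.40 ± 0.17) and FHL (-0.05 ± 0.24) were not called. Of 11 auxin response genes IAA18, a transcriptional repressor, was the one call (-0.74 ± 0.14), which is 9.09% lower against 6.81% of all genes. Of 6 WRKY factors 0 were called.

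Of 16 bZIP factors 3 were higher (18.8%, against 11.5% of all genes and 15.6% of those outside the dimmest 25%) and 0 lower. Among them bZIP19, a zinc deficiency regulator, had 0.55 ± 0.13. The count of higher bZIP factors was 4, 1 and 1 without pair 1, 2 or 3, and 0 without the pairing. Of 18 vesicle tethering and sorting proteins 3 were higher (16.7%, against 11.5% and 15.6%) and 1 lower (5.56%, against 6.81% and 9.31%). VPS60.1 and VPS60.2 had 0.65 and 0.64 and SEC22 -0.62. The call of SEC22 ended without pair 2 or 3 (adjusted p up to 0.20). Of 23 cytochromes P450 1 was higher and 1 lower (4.35% each, against 11.5% and 6.81%), and CYP71B23 had -0.82. Of 989 loci listed as pseudogenes, 128 lay outside the dimmest 25%. Of all 989, 10 were called higher (1.01%, against 11.5%) and 9 lower (0.91%, against 6.81%).

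**Figure D4:**
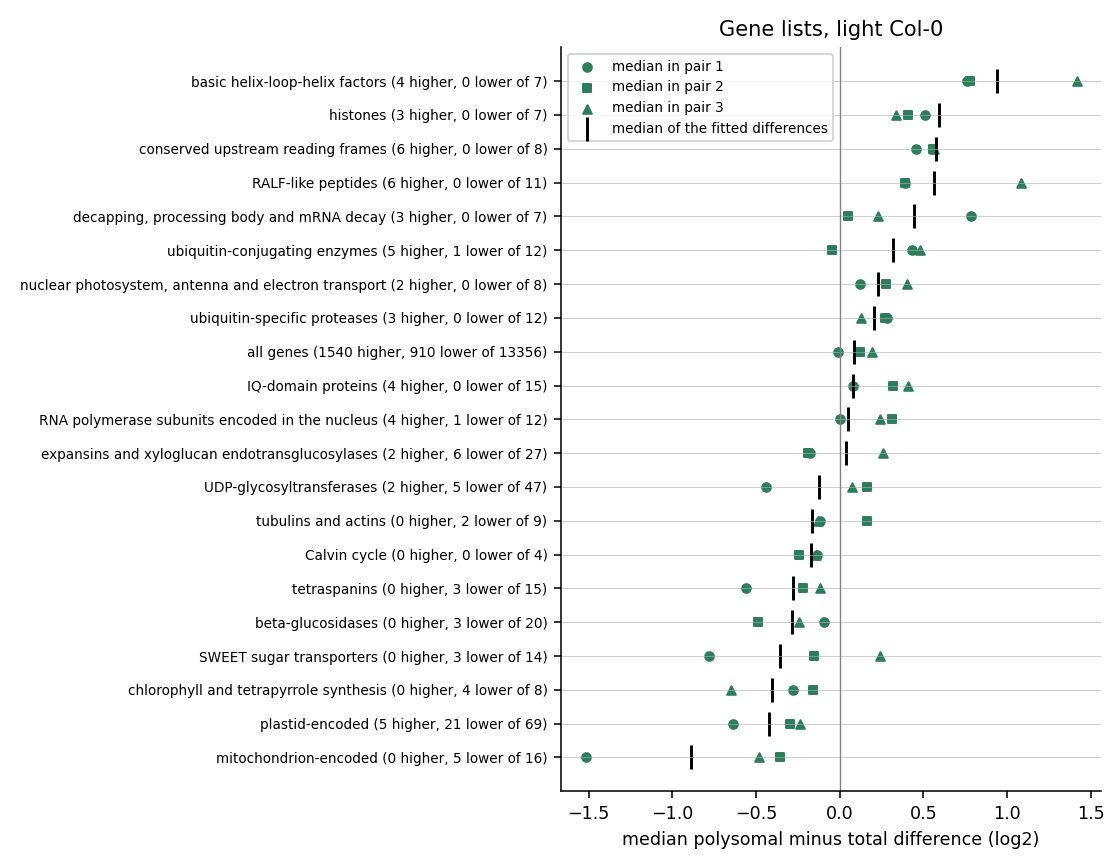
Median polysomal minus total difference (log2) of each gene list in light Col-0, with the number of members called. Points are the medians in the 3 pairs and the bar the median of the fitted differences. Basic helix-loop-helix factors lie highest at 0.94 and mitochondrion-encoded genes lowest at -0.89, against 0.09 for all genes.

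Short genes lay higher in polysomal RNA than long ones. Of 12224 nuclear protein-coding genes sorted by gene length, which here is the span in the genome with introns included, the shortest of 5 classes (78 to 1273 bp) had a median difference of 0.30, with 0.09, 0.34 and 0.60 in pairs 1 to 3. In that class 16.6% were called higher and 1.64% lower, against 11.5% and 6.81% of all genes. The longest class (3292 to 26499 bp) had a median of -0.02, with -0.05, 0.01 and 0.01 in the pairs, and 9.50% and 9.91% were called. Among genes outside the dimmer 50% the shortest class had 0.47, with 0.45, 0.39 and 0.62 in the pairs, and the longest -0.01. Of these brighter genes 49.6% of the shortest class and 15% of the longest were called higher. After quantile normalisation the medians of the shortest and longest classes were 0.23 and -0.06. The fall took place over the 3 shorter classes, and the 3 longer ones lay within 0.06 of each other. Across genes, which are not independent replicates and share arrays, Spearman's correlation of length with the difference was -0.18, and -0.07, -0.14 and -0.22 in the pairs. The 3′ minus 5′ signals of the control transcripts given above differed between the fractions in the same pairs, and their part in this relation was not tested. Some gene lists with many higher calls held short genes. The median length was 809 bp for RALF-like genes and 1109 bp for histones, against 2105 bp for all genes. It was 2271 bp for basic helix-loop-helix factors and 2446 bp for loci with a conserved upstream frame. The part of length in the list counts was not tested.

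**Figure D5:**
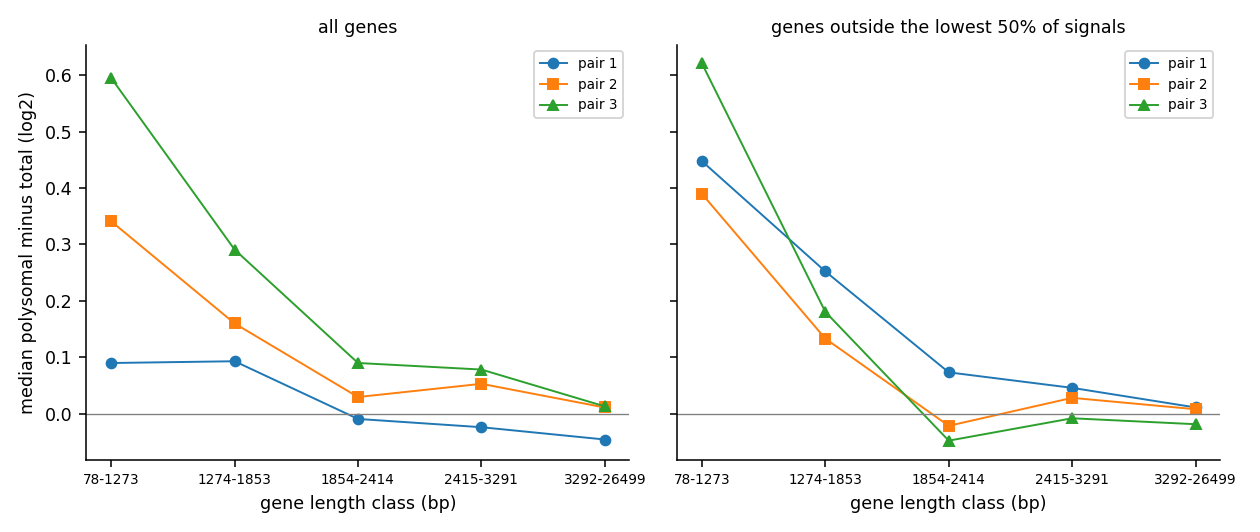
Median polysomal minus total difference (log2) of nuclear protein-coding genes in 5 classes of gene length (bp), for all genes at left and for genes outside the dimmer 50% at right. Lines are the 3 pairs. The shortest class is highest in all pairs but pair 1 of all genes, where it has 0.09, as has the second class, and the longer classes lie near 0.

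Loading in light was set against that in darkness to see where light Col-0 differed. The same fit tested the difference of the differences, light minus dark, and called 8 probe sets higher (0.0352%) and 0 lower, with 1341 at an unadjusted p under 0.05. Centring takes out any shift shared by a whole array, so this contrast cannot show a change common to most transcripts. As deposited, the polysomal minus total offset of array medians was -2.22 ± 0.63 in dark Col-0 and -0.97 ± 0.21 in light Col-0 (SD, n = 3 pairs). These offsets contain the factor by which each polysomal array had been divided in the deposited values. Read from the array floors, it was 7.32, 3.19 and 3.49 in dark Col-0 and 2.1, 1.68 and 1.64 in light Col-0. With it undone, the trimmed mean signal of each of these arrays was 500. Why the factors differ was not tested. Of the 8 called probe sets, 5 carry 1 gene. AT2G36930 had pair values of 0.83, 0.39 and 0.62 in light, against -0.79, -0.40 and -0.52 in darkness (1.18 ± 0.18 for light minus dark, adjusted p = 0.034). AT5G38520 had 0.53, 0.35 and 0.87 in light, against -0.47, -0.79 and -0.53 in darkness (1.18 ± 0.18). AT1G19600 had 0.16, 0.30 and 0.29 in light, against -0.69, -0.63 and -0.65 in darkness (0.90 ± 0.14). These 3 genes lay above the array median of differences in light and below it in darkness.

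AT1G10660 had 0.17, 0.26 and -0.14 in light, against -1.17, -1.16 and -0.95 in darkness (1.19 ± 0.19). AT2G38300, named after its value was seen, came from a dim probe set, with 5.34 ± 0.84. All 8 calls ended without any 1 replicate number (adjusted p of 0.18 to 0.59 for these 5 genes), without the pairing, with the compared pairs alone and without the variance trend. No plastid gene was called in this contrast, and the smallest adjusted p among the 69 was 0.15. The plastid median was -0.43 in light and -0.67 in darkness.

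The mutant in the same light gave no call. For light Col-0 minus light dcp5-1, 0 probe sets were called in either direction by limma, with 1254 at an unadjusted p under 0.05 and a smallest adjusted p of 0.70, and without replicate 3 there was 1. A simulated run of the main comparison changed few of the 22746 probe sets, 50 at each size. It called 12%, 50%, 88% and 100% of changes of 0.5, 1, 2 and 4 on the log2 scale. The unchanged probe sets gave 9 false calls. The adjusted p depends on how many probe sets change, and 20.2% were called in the data. These rates therefore do not describe the main comparison in the data. The contrasts between conditions were not simulated and carry a larger SE than the main comparison, so the rates do not describe them either. Of the 2746 higher calls of light Col-0, 1797 were also called higher in dark Col-0 (65.4%, and 71.7% of dark's calls) and 1844 in light dcp5-1 (67.2%, and 70.4% of that group's calls). Of the 1840 lower calls, 1077 were shared with dark Col-0 (58.5% and 61.4%) and 1157 with light dcp5-1 (62.9% and 63.0%), while 7 and 2 calls ran opposite ways. Over all 22746 probe sets, dark Col-0 had 2506 higher and 1755 lower calls, and light dcp5-1 had 2620 and 1837. The conditions share 1 estimate of the spread of each probe set, so their calls are not independent. psaA had -3.63 in light Col-0, -2.81 in light dcp5-1 and -2.85 in dark Col-0, and atpH had 2.69, 3.05 and 2.78. SWEET1 had -1.59 in light Col-0, -0.47 in light dcp5-1 and -0.54 in dark Col-0, a difference that passed neither test.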

How the data were processed

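Log2 signals of 24 ATH1 arrays were deposited by the authors, and the submitters' processing notes name GCOS 1.4. Per the deposited values, total arrays have a floor at log2 0 and each polysomal array was divided by 1 factor, and their number limits the precision. Per the labels' protocols, biotinylated cRNA was made with 1 kit for all samples. Of 22810 probe sets, 64 controls were left out of the test. The platform table gives 13513 probe sets 1 gene, 503 several, and 8730 others are unnamed here. Of the 13513, 13436 matched RefSeq (TAIR10.1).

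Arrays were centred on their medians. limma 3.58.1 in R 4.3.3 (trend, Benjamini-Hochberg at 0.05) fitted 12 polysomal minus total differences of the 4 conditions, 3 pairs each, so the spread is shared. Pairs were set by replicate number and not from correlations. Same-numbered samples deviated together in all 12 pairs (r of 0.20 to 0.61, with 0.44, 0.41 and 0.20 in light Col-0). 0 columns were identical. Within light Col-0, arrays correlated at 0.93 to 0.94 (polysomal) and 0.95 to 0.96 (total).

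Members and lists were chosen with earlier results of these data known, and some families, the plastid groups and neighbours were added after values were seen. Named genes were the 12 highest and 12 lowest calls outside the dimmest 25% with no overlap and no floor value, up to 3 genes per list and up to 4 per contrast each way. Not all are printed. Of the planned lists 8 had no member here, and lists of 1 or 2 are not described. Protein lengths were not used here, and gene length took their place. The fit was tested on simulated data. Alternatives were other scalings, filters, pairing, variance settings and leaving out replicates.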

Additional observations from a re-analysis of the deposited data

Results flagged for a closer look

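The loading difference between light and dark Col-0 passed the test for AT5G38520 (1.18), AT1G10660 (1.19), AT1G19600 (0.90) and AT2G36930 (1.18), on the log2 scale with light minus dark and 3 pairs in each condition. In each of the 4 the light pairs lay above all dark pairs, and each call ended when any replicate number was left out. The 4 genes were picked by this same contrast, so the gap between their pairs is no separate support.

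The bacterial spike transcripts, which no comparison of genes uses, were higher on polysomal than on total arrays of light Col-0. Relative to the array medians, polysomal minus total was 6.72 for dap, 6.12 for lys, 7.83 for phe and 7.58 for thr. On the polysomal arrays the 3′ minus 5′ signal of these spikes was 2.05 ± 0.82 for dap, 0.23 ± 0.39 for lys, 0.12 ± 0.26 for phe and 2.98 ± 0.43 for thr (SD, n = 3).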

How the results depend on the processing

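The calls in light Col-0, 2746 higher and 1840 lower, became 1343 and 771 with no replicate block, 30 and 10889 with values as deposited, where each array-wide offset stays in, and 1470 to 2473 and 814 to 1749 without 1 replicate. All 1343 higher and 770 of the lower calls without the block were also calls with it. The light minus dark loading contrast, 8 higher and 0 lower, gave 0 higher with no replicate block, with the compared pairs only and with no variance trend, 0 without any 1 replicate, 13298 higher and 5 lower as deposited, and 13 and 1, or 21 and 2, with the dimmest 25% or 50% left out. The contrast of light Col-0 with light dcp5-1 gave 0 to 1 higher without 1 replicate. Of 103 called genes that were followed singly, by the naming rule or as plastid genes added later, 47 lost the call with no replicate block, 22 with the compared pairs only, 23 with no variance trend, 8 after quantile normalisation, 6 after trimmed mean scaling, and 14, 24 and 30 without replicate 1, 2 and 3; none of these settings turned a called gene's direction.

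As deposited, the light Col-0 polysomal arrays lay lower than the total arrays by a median of -1.21, -0.84 and -0.86 in the 3 pairs, and with that offset kept the difference turned for psbJ -0.95, VHA-A2 -0.94, AT1G10660 -0.87, SDP1 -0.82, SDH2-1 -0.82, LHCB4.3 -0.80, AT1G19600 -0.72, SDH2-2 -0.68, rbcL -0.67, TUB9 -0.67, BZIP53 -0.62, VPS46.2 -0.55, LSM6B -0.53, UBP18 -0.46, IQD31 -0.43, RALFL22 -0.43, bZIP19 -0.42, CYP71B28 -0.40, bZIP44 -0.40, UBC29 -0.40, AT5G38520 -0.38, GI -0.38, AT5G15950 -0.38, PSBW -0.37, UBC22 -0.37, LSM3B -0.36, AT2G36930 -0.36, SAMDC -0.34, VPS60.2 -0.33, HTB2 -0.33, RALFL32 -0.33, VPS60.1 -0.32, UBP15 -0.32, HTB1 -0.30, UBC30 -0.29, IQD28 -0.29, UGT88A1 -0.26, NRPB6A -0.24, PSAE-1 -0.24, LSM6A -0.22, RALFL34 -0.20, HTB11 -0.18 and bHLH115 -0.028. The cause of these changes was not tested beyond what each setting does by construction. The dimmest 25% of probe sets, with a median SE of 0.86, could be called only for large differences.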
